A study of Mus musculus with 26 samples.

Results

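The replication-dependent histone genes supply the core histones H2A, H2B, H3 and H4 and the linker histone H1 to newly copied DNA. In this array study of mouse embryonic stem cells the family holds 62 annotated genes, 52 on chromosome 13 and 10 on chromosome 3. Members were chosen by symbol, as H1f1 to H1f5 and the genes whose symbols begin with H2ac, H2bc, H3c or H4c and a number. Of the 22180 genes that had a probe set of their own on the array, 25 were members: 4 of H1, 6 of H2A, 8 of H2B and 7 of H4. No H3 gene had a probe set of its own. A further 30 probe sets listed several symbols that were all in the family, and they are described apart from the 25. Of these, 28 had distinct values, since 2 pairs carried identical values.

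The samples were J1 mouse embryonic stem cells, a line grown in serum with leukaemia inhibitory factor on irradiated embryonic fibroblasts. The time course held 18 arrays in 9 groups of 2: Mettl14 knockdown, Mettl3 knockdown and a scramble control, with each sampled at 0 h, 4 h and 8 h. The other 8 arrays form a repeat set of 4 groups of 2 at 0 h: Mettl14 knockdown with its own scramble control, and Mettl3 knockdown with its own scramble control. Mettl14 and Mettl3 form the enzyme complex that writes m6A, a methyl mark on adenosines of mRNA. The labels describe the knockdown both as transfected small interfering RNA and as lentiviral hairpins selected with puromycin, do not say which arrays had which, and do not say what the cells received for 4 h or 8 h. All 13 groups share the cell line, the medium and the feeder layer. The titles call the 2 arrays of each group biological replicates, but the labels name no separate clones or experiments. The p-values thus measure only the spread between these arrays. The labels contradict themselves for 2 arrays of the repeat set, the second replicates of its scramble controls, which are described as 4 h but titled and timed as 0 h. Both were taken as 0 h.

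Most genes of this family are transcribed in S phase, when DNA is copied, under the coactivator NPAT. Their mRNAs usually end in a stem-loop bound by the protein SLBP in place of a poly(A) tail, and are degraded quickly when DNA synthesis ends or is blocked. Some of the genes can also give polyadenylated transcripts. In this study poly(A) RNA was purified before labelling, so the arrays measured the histone RNA that passed that step. All values below are log2 signal intensities per probe set as deposited, and a change is a difference between group means on that scale.

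The promoters of 4 members are printed because these genes stand for the contrasts in the data: H1f5 had the largest fall of the 25 members in scramble cells at 4 h, H2bc3 and H4c12 are the H2B and H4 members followed array by array, and H2bc22 was the member that rose. Each runs from 250 bases before to 50 bases after the annotated start, read 5′ to 3′ on the gene's strand, from RefSeq on GRCm38.p6. Capitals mark the letters TATAAA for the TATA box, CCAAT for the box of that name, ATTTGCAT for the octamer and AAACACA for the H1 box, found on either strand, and overlapping matches were kept.
H1f5, chr13:21780576-21780875, minus strand: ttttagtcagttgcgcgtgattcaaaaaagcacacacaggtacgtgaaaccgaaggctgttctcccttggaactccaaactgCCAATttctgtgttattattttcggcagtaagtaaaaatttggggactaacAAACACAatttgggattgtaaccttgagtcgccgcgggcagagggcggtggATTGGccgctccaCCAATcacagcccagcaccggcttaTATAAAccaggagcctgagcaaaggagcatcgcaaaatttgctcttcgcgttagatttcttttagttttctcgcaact
H2bc3, chr13:23746484-23746783, plus strand: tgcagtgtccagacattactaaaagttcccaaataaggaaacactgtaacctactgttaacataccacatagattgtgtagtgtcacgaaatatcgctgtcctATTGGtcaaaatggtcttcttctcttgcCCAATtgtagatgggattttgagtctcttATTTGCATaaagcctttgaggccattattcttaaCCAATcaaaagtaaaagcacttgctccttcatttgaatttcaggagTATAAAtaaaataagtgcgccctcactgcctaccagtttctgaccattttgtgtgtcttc
H4c12, chr13:21750504-21750803, minus strand: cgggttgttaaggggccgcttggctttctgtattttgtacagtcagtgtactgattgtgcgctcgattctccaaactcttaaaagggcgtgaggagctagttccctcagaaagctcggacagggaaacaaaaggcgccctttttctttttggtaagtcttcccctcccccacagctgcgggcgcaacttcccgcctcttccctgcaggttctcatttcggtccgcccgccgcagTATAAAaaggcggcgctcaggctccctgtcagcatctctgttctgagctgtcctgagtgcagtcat
H2bc22, chr13:21787238-21787537, plus strand: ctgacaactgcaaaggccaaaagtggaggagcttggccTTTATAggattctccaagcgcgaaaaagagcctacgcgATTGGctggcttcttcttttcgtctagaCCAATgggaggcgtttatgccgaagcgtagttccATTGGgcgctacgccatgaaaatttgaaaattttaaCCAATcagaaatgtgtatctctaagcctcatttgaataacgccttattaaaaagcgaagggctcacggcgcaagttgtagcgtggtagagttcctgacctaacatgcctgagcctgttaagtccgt
The reference table held promoters for 57 of the 62 family genes, in 58 windows. TATAAA was present in 58.6% of these windows and in 13.6% of the 32851 promoters of the table. CCAAT was present in 86.2% of the family's windows and in 37.4% of all promoters. It was found in every H1, H2A, H2B and H3 window but in only 3 of 11 H4 windows, and the H4c12 promoter above has none. ATTTGCAT was present in 22.4% of the family's windows, all of them H2A or H2B, and in 1.74% of all promoters. AAACACA was present in 4 of 5 H1 windows and in 7.18% of all promoters. The H2bc22 promoter holds CCAAT on both strands but no octamer, and its TATAAA lies on the opposite strand, far upstream of the start, whereas that of H1f5 lies just upstream of the start on the gene's own strand. A match is a description of the letters only.

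The 2 arrays of each group correlated at 0.9869 to 0.9926 over all probe sets. Mettl14 changed by -1.70 ± 0.13 (standard error, adjusted p = 9.6e-07, limma) in Mettl14 knockdown relative to scramble cells at 0 h of the time course. Mettl3 has no probe set of its own, and the one it shares with Tox4 changed by -1.89 in Mettl3 knockdown cells at 0 h. The stem cell markers Nanog, Sox2 and Pou5f1 were measured at 11.9 to 12.9, 9.46 to 12.5 and 7.75 to 9.40. Dppa5a, of the same list, was dim, with a median of 5.57. The fibroblast markers Fn1 and Vim were also bright, at 12.0 to 12.6 and 11.4 to 12.0, but they were the brightest of their list. Tagln, Sparc, Mmp2, Acta2 and Fstl1 followed, with median signals of 10.4, 10.3, 10.3, 10.1 and 9.62. Other fibroblast markers had medians of 7.98 (Col1a1), 6.54 (Col3a1), 5.39 (Dcn) and 4.29 (Lum). At 0 h of the time course the mean of the fibroblast markers per array was 7.66 to 7.76 in the knockdowns and 7.29 in scramble cells, and that of the stem cell markers was 10.43 to 10.49 in the knockdowns and 11.00 to 11.01 in scramble cells. No marker was at 0 on any array, but no probe set was, since the lowest deposited value was 0.754, so this does not show that a marker was expressed. These are bulk samples, in which fewer cells of a type and less RNA per cell cannot be told apart, and the part of any feeder RNA in the histone results was not tested.

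The histone family fell steeply within 4 h in all 3 treatments. Tested with no filter on signal, 17 of the 25 members were lower at 4 h than at 0 h in Mettl14 knockdown cells, 18 in Mettl3 knockdown cells and 19 in scramble cells (limma, adjusted p under 0.05). Over all 22180 genes, 8.48%, 8.42% and 8.81% were lower in those comparisons, so the family's share was far above the background. The median change of the 25 members was -1.76, -1.76 and -1.61, while the median over all genes was 0.09, 0.07 and 0.12. In each treatment 11 of the 25 fell by 2 or more on the log2 scale, a fall that 0.311%, 0.307% and 0.343% of all genes showed. No member rose in the knockdowns and 1, H2bc22, rose in scramble cells, where 20.1% of all genes rose.

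**Figure D1:**
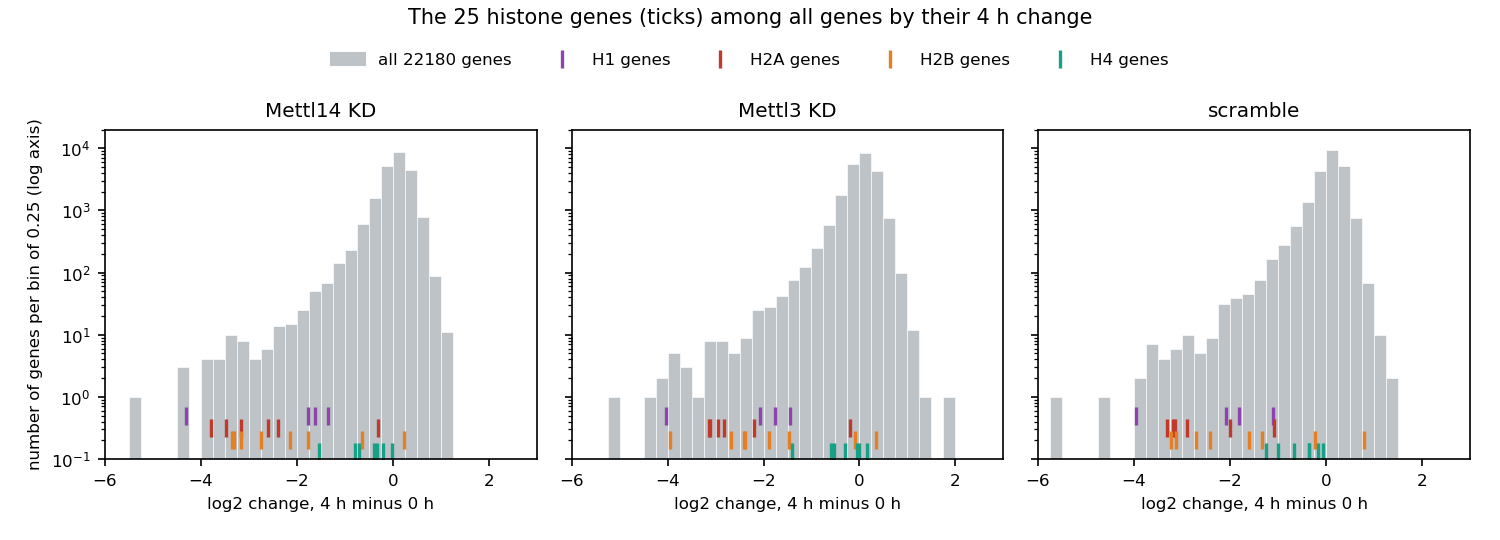
Distribution of the log2 change from 0 h to 4 h over all 22180 genes (grey bars, number of genes per bin on a log axis), with the 25 histone members drawn as ticks coloured by class, in Mettl14 knockdown, Mettl3 knockdown and scramble cells. Most H1, H2A and H2B ticks lie in the left tail, and the H4 ticks lie nearer to 0.

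A filter that left out the 7393 dimmest genes by mean signal over all 26 arrays, repeat set included, kept 17 of the 25 members. The 8 below it were H1f1, H2ac12, H2bc1, H2bc21, H4c1, H4c2, H4c8 and H4c17. H1f3 passed near the limit, with a mean of 6.15 against 5.998 for the dimmest gene tested. Its Mettl14 knockdown arrays at 0 h were brighter in the repeat set than in the time course. Whether H1f3 would pass on the time course arrays alone was not tested. Among the 17, 15 fell in Mettl14 knockdown cells, 16 in Mettl3 knockdown cells and 15 in scramble cells at 4 h, against 13.1%, 13.1% and 13.5% of the 14787 genes tested. H2bc22 was the only riser, in scramble cells, where 32.7% of the genes tested rose, beside 33% and 31.5% in the knockdowns. Their median change was -2.39, -2.20 and -2.005 as deposited, and -2.64, -2.42 and -2.18 when every array was set to the same median of a housekeeping list. The median over all genes was 0.10 to 0.15 in the comparisons of 4 h or 8 h with 0 h as deposited, 0.18 to 0.25 after a further quantile normalisation and -0.05 to -0.21 with equal housekeeping medians. In scramble cells 4838 genes were higher and 2001 lower at 4 h as deposited, against 1176 higher and 3250 lower with equal housekeeping medians, so the direction of a typical gene turned with the scaling while the family's did not.

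Linker histone H1 genes fell in every case. H1f5 (chr13:21779832-21780625), a linker histone that compacts nucleosome arrays, had in Mettl14 knockdown cells 11.30 and 11.17 at 0 h, 6.78 and 7.08 at 4 h, and 6.21 and 7.13 at 8 h. Its values in Mettl3 knockdown cells were 11.60 and 11.44 at 0 h, 7.73 and 7.27 at 4 h, and 7.55 and 7.34 at 8 h. In scramble cells it had 11.81 and 11.83 at 0 h, 7.92 and 7.79 at 4 h, and 7.28 and 7.17 at 8 h. Every array at 4 h or 8 h was more than 3 log2 units below every array at 0 h. The 4 h change was -4.31 ± 0.23 in Mettl14 knockdown cells (adjusted p = 1.1e-07, limma), -4.02 ± 0.23 in Mettl3 knockdown cells (2.0e-07) and -3.97 ± 0.23 in scramble cells (2.0e-07). That left 5.04%, 6.16% and 6.40% of the signal at 0 h. By size of fall H1f5 ranked 4, 2 and 3 among the 14787 genes in the 3 treatments. H1f2 and H1f3, other linker histones, fell less: H1f2 changed by -1.63 ± 0.16, -1.76 ± 0.16 and -1.11 ± 0.16, and H1f3 by -1.36 ± 0.16, -2.07 ± 0.16 and -1.80 ± 0.16. H1f1, below the signal filter, changed by -1.78 ± 0.24, -1.44 ± 0.24 and -2.08 ± 0.24 and passed without the filter in each treatment.

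H2A genes fell as a group. All 6 members were lower at 4 h in scramble cells and 5 of 6 in each knockdown. H2ac1 (chr13:23934437-23934913), which encodes a variant known as TH2A from testis and oocytes, had in Mettl14 knockdown cells 10.65 and 10.69 at 0 h, 7.12 and 7.24 at 4 h, and 7.04 and 6.92 at 8 h. In Mettl3 knockdown cells it had 10.25 and 10.15, then 7.14 and 7.04, then 7.29 and 7.19 at the same times, and in scramble cells 10.84 and 10.72, then 7.71 and 7.57, then 7.42 and 7.42. The 0 h arrays and the later arrays did not overlap in any treatment, and the gap between them was many times the gap between replicates. The 4 h change was -3.49 ± 0.07 (adjusted p = 3.2e-11, limma), -3.11 ± 0.07 (1.3e-10) and -3.14 ± 0.07 (1.1e-10) in Mettl14 knockdown, Mettl3 knockdown and scramble cells. H2ac15 (chr13:21753377-21753912), a core H2A gene, changed by -3.80 ± 0.28, -3.13 ± 0.28 and -3.32 ± 0.28.

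H2ac10 (chr13:23533875-23534378), another core H2A gene, had 12.40 and 12.46 at 0 h, 9.95 and 10.13 at 4 h, and 9.99 and 9.93 at 8 h in Mettl14 knockdown cells. Mettl3 knockdown cells gave 12.56 and 12.62, 10.26 and 10.52, and 10.003 and 10.29, and in scramble cells 12.50 and 12.67, 10.48 and 10.69, and 10.25 and 10.23. The fall of -2.39 ± 0.11, -2.20 ± 0.11 and -2.005 ± 0.11 at 4 h was smaller than that of H2ac1. H2ac20 and H2ac21, on chromosome 3, changed by -2.91 ± 0.23 and -3.18 ± 0.13 in scramble cells. All values given for H2ac21 come from the brighter of its 2 probe sets. The other ranged only from 4.41 to 5.17 over all arrays, so it showed no fall of that size. The dim H2ac12 was the exception: it changed by -1.09 ± 0.24 in scramble cells (adjusted p = 0.0064 without the filter) but by -0.30 ± 0.24 and -0.19 ± 0.24 in Mettl14 and Mettl3 knockdown cells, where it did not pass.

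**Figure D2:**
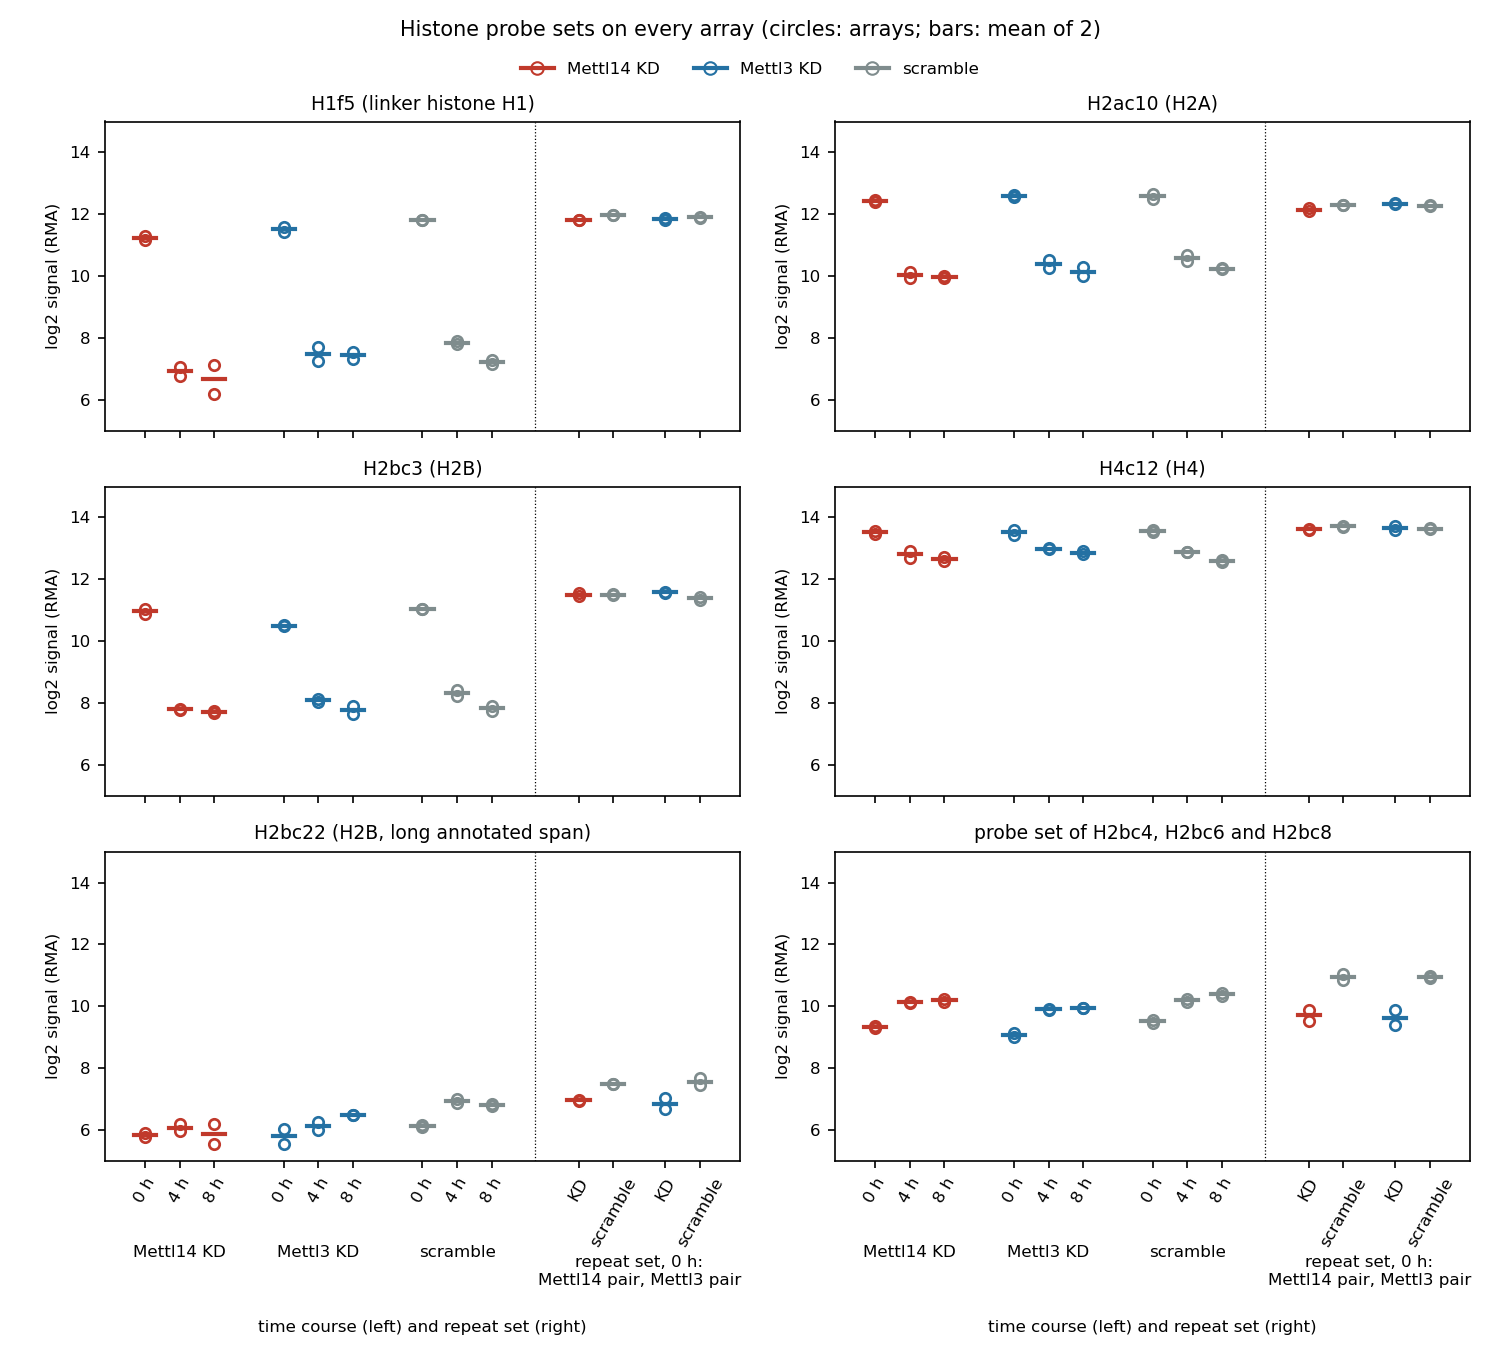
Log2 signal of 5 members and 1 shared probe set on every array (circles, 2 per group, with bars at their mean), with Mettl14 knockdown, Mettl3 knockdown and scramble cells of the time course at 0, 4 and 8 h on the left and the pairs of the repeat set at 0 h on the right. H1f5, H2ac10 and H2bc3 drop between 0 h and 4 h and stay low at 8 h, H4c12 drops little, and H2bc22 in scramble cells and the shared probe set of H2bc4, H2bc6 and H2bc8 rise.

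Of the 8 H2B members, 6 fell at 4 h in each treatment, and the remaining 2 were H2bc21 and H2bc22. H2bc3 (chr13:23746734-23747223), a core H2B gene, had in Mettl14 knockdown cells 11.04 and 10.89 at 0 h, 7.78 and 7.82 at 4 h, and 7.68 and 7.74 at 8 h. The Mettl3 knockdown arrays had 10.50 and 10.51, then 8.05 and 8.14, then 7.64 and 7.91, and in scramble cells 11.04 and 11.05, then 8.24 and 8.44, then 7.74 and 7.92. The times did not overlap, and the level at 0 h was lower in Mettl3 knockdown arrays than in the other treatments. The 4 h change was -3.17 ± 0.09 (adjusted p = 1.0e-09, limma), -2.41 ± 0.09 (1.0e-08) and -2.70 ± 0.09 (6.6e-09) in the order Mettl14 knockdown, Mettl3 knockdown, scramble. H2bc12 changed by -3.31 ± 0.49, -3.94 ± 0.49 and -3.13 ± 0.49, with the largest error among the 17 members above the filter. Its replicates stood far apart in Mettl3 knockdown cells, at 7.95 and 6.56 at 4 h. H2bc14, H2bc18 and H2bc9 changed in scramble cells by -2.43 ± 0.17, -1.61 ± 0.12 and -1.33 ± 0.39. The dim H2bc1, which encodes the testis variant TH2B next to H2ac1, changed by -3.35 ± 0.50, -2.39 ± 0.50 and -3.24 ± 0.50 without the filter.

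H2bc22 and H2bc21 stand apart from the other members by gene structure. The annotated span from start to end was 375 to 911 bases for 57 of the 62 family genes, but 14079 bases for H2bc22 (chr13:21787483-21801561) and 2667 for H2bc21. These are the 2 members with a span over 1000 bases. Neither fell at 4 h in any treatment, while of the 23 shorter members 17 fell in Mettl14 knockdown, 18 in Mettl3 knockdown and 19 in scramble cells. Not falling was not particular to the long genes, since several short H4 members did not fall either. H2bc21 was also below the signal filter. H2bc22 had in Mettl14 knockdown cells 5.77 and 5.92 at 0 h, 5.96 and 6.20 at 4 h, and 5.54 and 6.20 at 8 h. Mettl3 knockdown cells gave 5.56 and 6.02, then 6.27 and 6.00, then 6.48 and 6.50, and in scramble cells 6.17 and 6.11, then 6.89 and 6.99, then 6.83 and 6.79. In scramble cells all later arrays of H2bc22 lay above its 0 h arrays. So did those of 8201 of the 14787 genes tested at 4 h and of 8029 at 8 h. In Mettl14 knockdown cells the times of H2bc22 overlapped. The 4 h change was 0.80 ± 0.19 in scramble cells (adjusted p = 0.0043, limma), and 0.23 ± 0.19 (0.34) and 0.35 ± 0.19 (0.16) in Mettl14 and Mettl3 knockdown cells. The difference of the 4 h changes between Mettl14 knockdown and scramble cells was -0.57 ± 0.26 (adjusted p = 0.59) and did not pass. H2bc21, known in mouse olfactory neurons as the variant H2BE, changed by -0.64 ± 0.23 (adjusted p = 0.063), -0.09 ± 0.23 and -0.23 ± 0.23 in the 3 treatments.

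The H4 members moved least. Only 2, 3 and 3 of 7 fell at 4 h in Mettl14 knockdown, Mettl3 knockdown and scramble cells, and 4 of the 7 were below the signal filter. H4c12 (chr13:21750145-21750553), a gene for the core histone H4, had in Mettl14 knockdown cells 13.58 and 13.46 at 0 h, 12.70 and 12.91 at 4 h, and 12.60 and 12.74 at 8 h. The Mettl3 knockdown arrays had 13.44 and 13.60, then 13.01 and 12.98, then 12.90 and 12.84, and in scramble cells 13.60 and 13.53, then 12.90 and 12.89, then 12.62 and 12.55. The 0 h arrays lay above every later array in each treatment, but the step was small and the signal lay close to the highest value in the deposited table, 14.3. Its 4 h change was -0.71 ± 0.08 (adjusted p = 3.8e-05, limma), -0.53 ± 0.08 (0.0003) and -0.67 ± 0.08 (6.0e-05). H4c14 changed by -1.55 ± 0.26, -1.41 ± 0.26 and -1.004 ± 0.26. H4c9 changed by -0.39 ± 0.19 (adjusted p = 0.11), -0.60 ± 0.19 (0.02) and -0.36 ± 0.19 (0.14), and its scramble arrays at 0 h and 8 h overlapped.

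H3 could be followed only through probe sets that list several genes, as could 11 of the 17 H2A genes. Of the 28 distinct shared probe sets, 20, 20 and 22 fell at 4 h without the filter in Mettl14 knockdown, Mettl3 knockdown and scramble cells, against 8.7%, 8.69% and 9.05% of the 25335 listed probe sets. Of the 21 that passed the filter, 7 are H3, and 6, 5 and 6 of these fell, against 13.3%, 13.3% and 13.8% of the probe sets tested. An H3 probe set that lists 8 genes (H3c2, H3c3, H3c4, H3c6, H3c7, H3c13, H3c14 and H3c15) had in scramble cells 10.38 and 10.32 at 0 h, 8.90 and 8.77 at 4 h, and 8.78 and 8.66 at 8 h. It had 10.33 and 10.15, 8.49 and 8.60, and 8.35 and 8.38 in Mettl14 knockdown cells, and 10.28 and 10.27, 8.66 and 8.49, and 8.47 and 8.41 in Mettl3 knockdown cells. The 0 h arrays stood clear of the later ones in every treatment, with a 4 h change of -1.52 ± 0.08 in scramble cells (adjusted p = 5.5e-08, limma). An H2A probe set that lists 10 genes, H2ac4 and H2ac12 among them, fell by 4.02 ± 0.25 in scramble cells (adjusted p = 2.3e-07), and the H4 probe set, which lists 6 genes, fell by 1.46 ± 0.07 (2.2e-08).

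A pair of probe sets with the same symbols moved in opposite ways. Both list H2bc4, H2bc6 and H2bc8, H2B genes of which H2bc4 and H2bc6 have annotated spans of 8282 and 37455 bases. The first had in Mettl14 knockdown cells 9.36 and 9.31 at 0 h, 10.15 and 10.12 at 4 h, and 10.15 and 10.25 at 8 h. In Mettl3 knockdown cells it had 9.12 and 9.01, then 9.93 and 9.87, then 9.95 and 9.96, and in scramble cells 9.47 and 9.56, then 10.14 and 10.24, then 10.35 and 10.44. Its later arrays lay above its 0 h arrays in every treatment. At 4 h so did those of 7575, 7303 and 8201 of the 14787 genes tested in Mettl14 knockdown, Mettl3 knockdown and scramble cells. The first probe set had a 4 h change of 0.80 ± 0.06, 0.83 ± 0.06 and 0.68 ± 0.06 (adjusted p = 7.3e-06 in scramble cells, limma). It was the only shared probe set to rise at 4 h among those tested. The second fell by 1.96 ± 0.21 in scramble cells (adjusted p = 2.6e-05). Which of the 3 genes each measures was not tested.

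H2A and H2B genes often lie head to head, a short distance apart. H2ac1 and H2bc1 lie 280 bases apart and changed by -3.14 and -3.24 at 4 h in scramble cells. H2ac20 and H2bc21 lie 191 bases apart, and changed by -2.91 and -0.23. H2ac12 and H2bc12 lie 177 bases apart and changed by -1.09 and -3.13. H2ac12 and H2bc21 were below the signal filter.

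The falls were still present at 8 h, in comparisons that use the same 0 h arrays. Without the filter, 17, 17 and 18 of the 25 members were lower at 8 h than at 0 h in Mettl14 knockdown, Mettl3 knockdown and scramble cells, against 12.8%, 12.7% and 14.6% of all genes. Among the 17 above the filter 15 fell in each treatment, against 19.4%, 19.2% and 21.6% of the genes tested, and 0, 1 and 1 rose, against 36.8%, 36.9% and 39.2%. At 8 h H1f5 had changed by -4.57, -4.08 and -4.60 from its 0 h level. H2bc22 was higher by 0.70 ± 0.19 in Mettl3 knockdown cells (adjusted p = 0.0068, limma) and by 0.67 ± 0.19 in scramble cells (0.008), but by 0.03 ± 0.19 in Mettl14 knockdown cells. The call in Mettl3 knockdown cells was lost without replicate 1 of that knockdown at 0 h. H4c1, a dim H4 gene, was higher by 0.64 ± 0.22 in scramble cells without the filter (adjusted p = 0.035). Between 8 h and 4 h, 2 of the 17, H2bc3 and H4c12, fell further in scramble cells, with changes of -0.51 ± 0.09 (adjusted p = 0.0029) and -0.31 ± 0.08 (0.022). Of the genes tested 12.8% were lower and 2.07% higher there, so the members' share was near the background. Leaving out either 4 h scramble array, or replicate 2 at 8 h, left 1 call. No member passed for 8 h against 4 h in the knockdowns by limma. At the same adjusted threshold 6.8% and 6.44% of the genes tested were lower and 1.19% and 1.4% higher in Mettl14 and Mettl3 knockdown cells. In each knockdown 3 members had an unadjusted p under 0.05, a threshold at which the share of all genes was not counted.

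**Figure D3:**
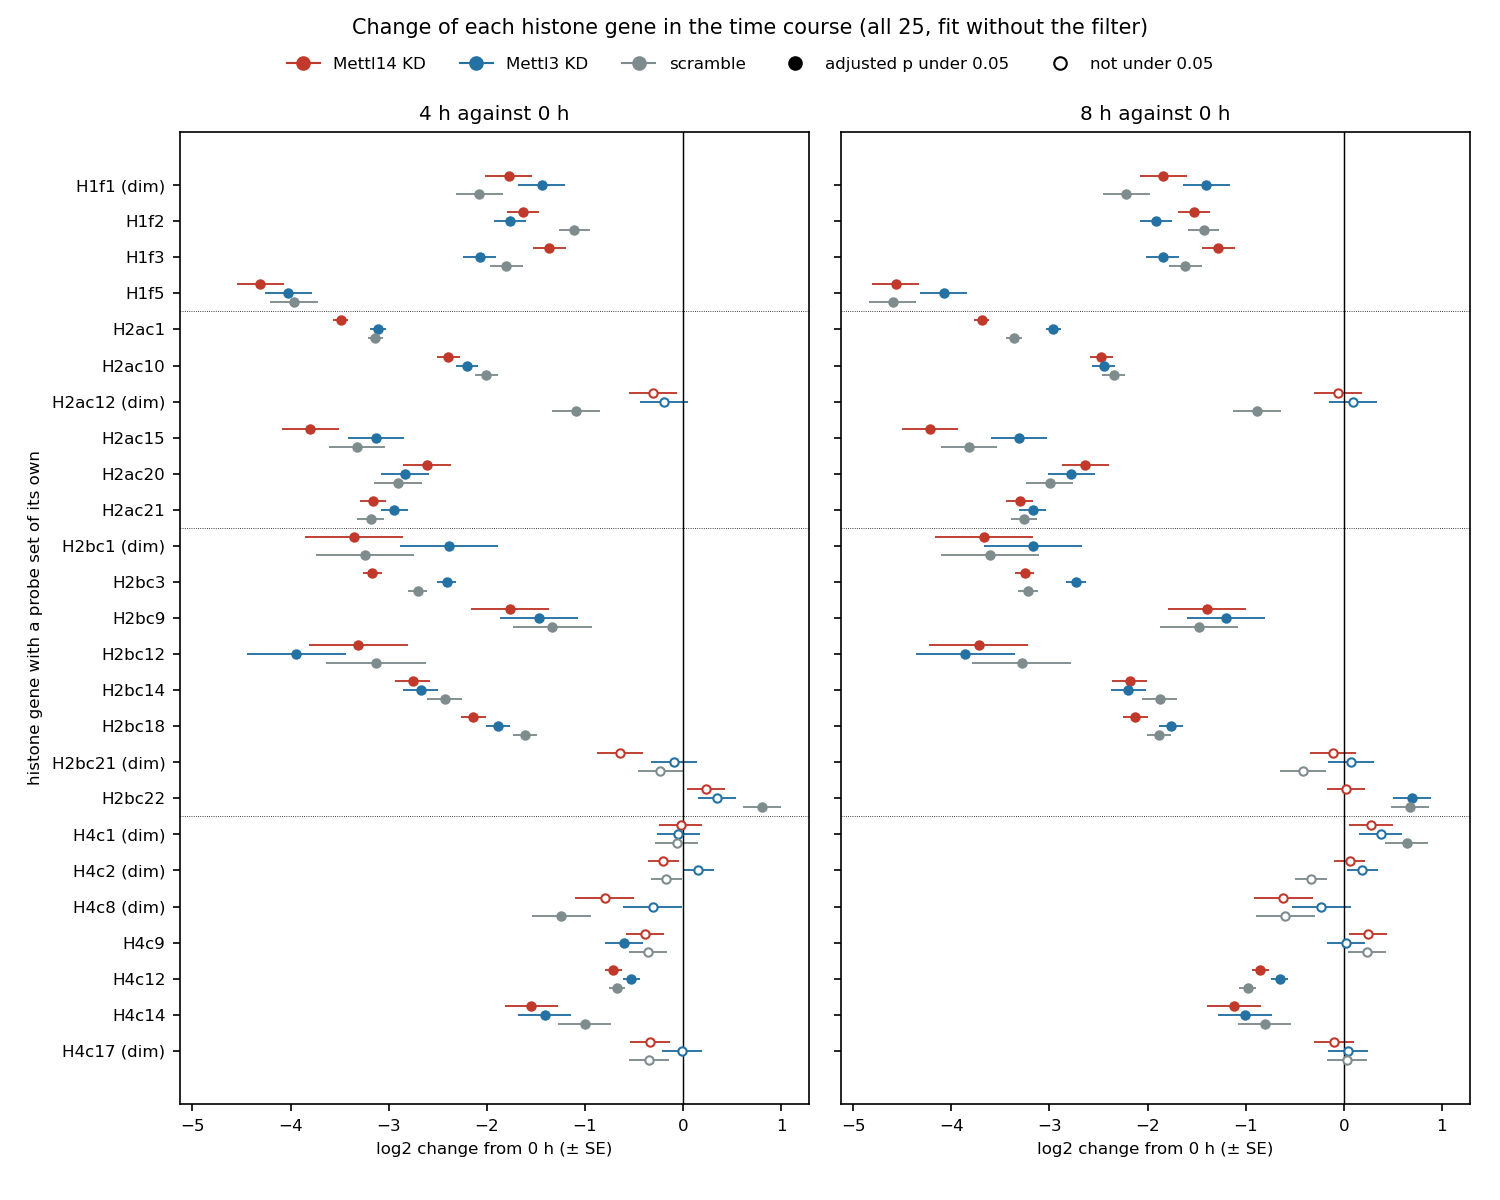
Log2 change of each of the 25 members at 4 h and at 8 h relative to 0 h, with the standard error from limma, ordered by histone class and filled where the adjusted p was under 0.05, in Mettl14 knockdown, Mettl3 knockdown and scramble cells. Most H1, H2A and H2B members lie below -1, the H4 members lie nearer to 0, and H2bc22 lies above 0 in scramble cells.

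Summarised by class, the signal of H1, H2A, H2B and H3 was lower at 4 h and 8 h than at 0 h in each treatment. For each array the median difference of a class's members from their own means over all arrays was taken, and the 2 arrays of a group were averaged. For H1 it was 0.59 at 0 h, -1.41 at 4 h and -1.32 at 8 h in Mettl14 knockdown cells, 0.66, -1.41 and -1.37 in Mettl3 knockdown cells, and 0.89, -1.16 and -1.24 in scramble cells. For H2A it was 1.21 at 0 h, -1.69 at 4 h and -1.82 at 8 h in Mettl14 knockdown cells, 1.16, -1.46 and -1.55 in Mettl3 knockdown cells, and 1.51, -1.32 and -1.41 in scramble cells. For H2B the course was 0.89, -1.56 and -1.30, then 0.78, -1.19 and -0.97, and 1.19, -0.81 and -0.69 in the same treatments. The H3 shared probe sets ran at 0.27, -0.86 and -0.75, at 0.21, -0.77 and -0.72, and at 0.65, -0.45 and -0.48. The H4 members stayed within a narrow band, at 0.07, -0.46 and -0.28, at -0.06, -0.27 and -0.23, and at 0.33, -0.34 and 0.08. The shared H2A probe sets had -0.94 in Mettl14 knockdown, -0.92 in Mettl3 knockdown and -1.01 in scramble cells at 8 h, so the order of the treatments there was not that of the H2A members.

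Whether a knockdown altered the fall was tested as the difference of the changes. No member passed for either knockdown at 4 h or 8 h by limma. The counts at an unadjusted p under 0.05 were 5 and 2 for Mettl14 knockdown and 2 and 4 for Mettl3 knockdown at 4 h and 8 h. The share of all genes at that unadjusted threshold was not counted, so these counts have no background beside them. Few genes passed the adjusted threshold. At 4 h 0.0338% were lower and 0.0744% higher for Mettl14, and 0.0473% were lower and 0.0135% higher for Mettl3. At 8 h the shares were 1.41% and 3.58% for Mettl14 and 1.01% and 2.46% for Mettl3. For H1f5 the 4 h fall differed between Mettl14 knockdown and scramble cells by -0.34, with a 95% interval of -1.06 to 0.37. For H2bc3 the difference was -0.46 with an interval of -0.75 to -0.17, and the adjusted p was 0.28. Without replicate 2 of Mettl14 knockdown at 8 h, or replicate 1 of Mettl3 knockdown at 8 h, 1 member passed for that knockdown's 8 h change.

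Beside these falls the differences between knockdown and scramble cells were small, and those that passed were mostly downward. Both knockdowns of the time course are set against the same scramble arrays. At 0 h of the time course, 3 of the 25 members were lower in Mettl14 knockdown than in scramble cells (H2ac12, H2ac21 and H2bc18), against 11.7% of all genes, and 5 were lower in Mettl3 knockdown cells (H1f1, H2ac1, H2ac12, H2bc3 and H4c2), against 11%. The first share is near the background, and the second rests on 5 genes. The median change of the 25 was -0.33 and -0.28, while that of all genes was 0.02 and 0.01. Among the 17 above the filter, H2bc18 changed by -0.43 ± 0.12 in Mettl14 knockdown cells (adjusted p = 0.012, limma), and H2ac1 and H2bc3 changed by -0.58 ± 0.07 (5.7e-05) and -0.54 ± 0.09 (0.00068) in Mettl3 knockdown cells. The 3 calls among the 17 for Mettl14 knockdown fell to 0 without replicate 2 of that group and to 1 without either scramble array. At the same time point, 10 of 14 stem cell markers were lower and 10 of 21 fibroblast markers higher in Mettl14 knockdown cells, and 11 and 9 in Mettl3 knockdown cells, and their part in the histone values was not tested. Of all genes tested, 20.1% were lower and 19.4% higher in Mettl14 knockdown cells, and 18.6% and 19.3% in Mettl3 knockdown cells.

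At 4 h more members were lower in Mettl14 knockdown than in scramble cells than at 0 h, though no member's change differed between the times by the test above. Without the filter, 10 of the 25 members were lower and none higher, against 11.6% of all genes, with a median of -0.46 beside -0.01 for all genes. The 10 were H1f2, H1f5, H2ac1, H2ac10, H2ac21, H2bc3, H2bc18, H2bc21, H2bc22 and H4c14. H2bc18, a core H2B gene, had 7.50 and 7.62 in Mettl14 knockdown arrays at 4 h, against 8.57 and 8.47 in scramble arrays. The arrays did not overlap, and 37.2% of the genes tested also lay wholly below their scramble arrays there. For H2bc18 the change was -0.96 ± 0.12 (adjusted p = 4.2e-05, limma). H1f5 changed by -0.93 ± 0.23 (0.0066), H2bc22 by -0.86 ± 0.19 (0.0027), H2ac10 by -0.54 ± 0.11 (0.0019), H2bc3 by -0.54 ± 0.09 (0.00056) and H2ac1 by -0.46 ± 0.07 (0.00031). H4c12 did not pass, at -0.08 ± 0.08. Among the 17 members above the filter 10 passed, and 6 without replicate 1 of Mettl14 knockdown at 4 h, where H1f5 no longer passed. The mean of the fibroblast markers was 7.93 in Mettl14 knockdown arrays at 4 h and 7.50 to 7.55 in scramble arrays, and its part in the result was not tested.

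In Mettl3 knockdown cells at 4 h, 3 of the 25 members were lower (H2ac1, H2bc18 and H2bc22), against 11.1% of all genes, which is close to the background. H2ac1 changed by -0.55 ± 0.07 (adjusted p = 8.3e-05, limma), H2bc18 by -0.56 ± 0.12 (0.0026) and H2bc22 by -0.80 ± 0.19 (0.0046). At 8 h, 4 members were lower in Mettl14 knockdown cells (H2ac1, H2ac21, H2bc18 and H2bc22), against 12.3% of all genes, and these changed by -0.44 ± 0.07, -0.50 ± 0.13, -0.67 ± 0.12 and -0.94 ± 0.19. Of the 17 above the filter 5 passed, against 19.8% of the genes tested, and 9 without replicate 2 of that knockdown at 8 h. In Mettl3 knockdown cells at 8 h, H4c12 was the only member to pass, and it was higher by 0.28 ± 0.08 (adjusted p = 0.013), against 14.7% of all genes higher. Its arrays had 12.90 and 12.84 in Mettl3 knockdown cells, against 12.62 and 12.55 in scramble cells. With equal housekeeping medians this 1 higher call among the 17 was replaced by 8 lower calls, so which members passed depended on the scaling. Of the 14787 genes tested, 6471 were lower and 1911 higher under that scaling, against 2815 lower and 3519 higher as deposited. The 8 lower calls were thus near the background of that scaling. The median of the 17 was -0.16 as deposited and -0.35 with equal housekeeping medians. That of all genes tested was -0.01 and -0.20. The H4c12 call was also lost without replicate 1 of Mettl3 knockdown at 8 h.

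The shared probe sets gave like counts. Of the 21 tested, 3 and 4 were lower in Mettl14 and Mettl3 knockdown cells at 0 h, against 19% and 17.8% of the probe sets tested, and 7 and 3 at 4 h, against 18.5% and 17.5%. At 8 h, 5 and 4 were lower, against 19.1% and 18.4%, and 1 and 2 higher, against 22.1% and 22.2%. A probe set of H2bc7, H2bc11, H2bc13 and H2bc15, core H2B genes, changed by -0.32 ± 0.04 in Mettl14 knockdown relative to scramble cells at 4 h (adjusted p = 0.00011, limma). The H4 probe set changed by -0.34 and -0.40 in Mettl14 and Mettl3 knockdown cells at 0 h, and by 0.41 in Mettl3 knockdown cells at 8 h (adjusted p = 0.00048).

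**Figure D4:**
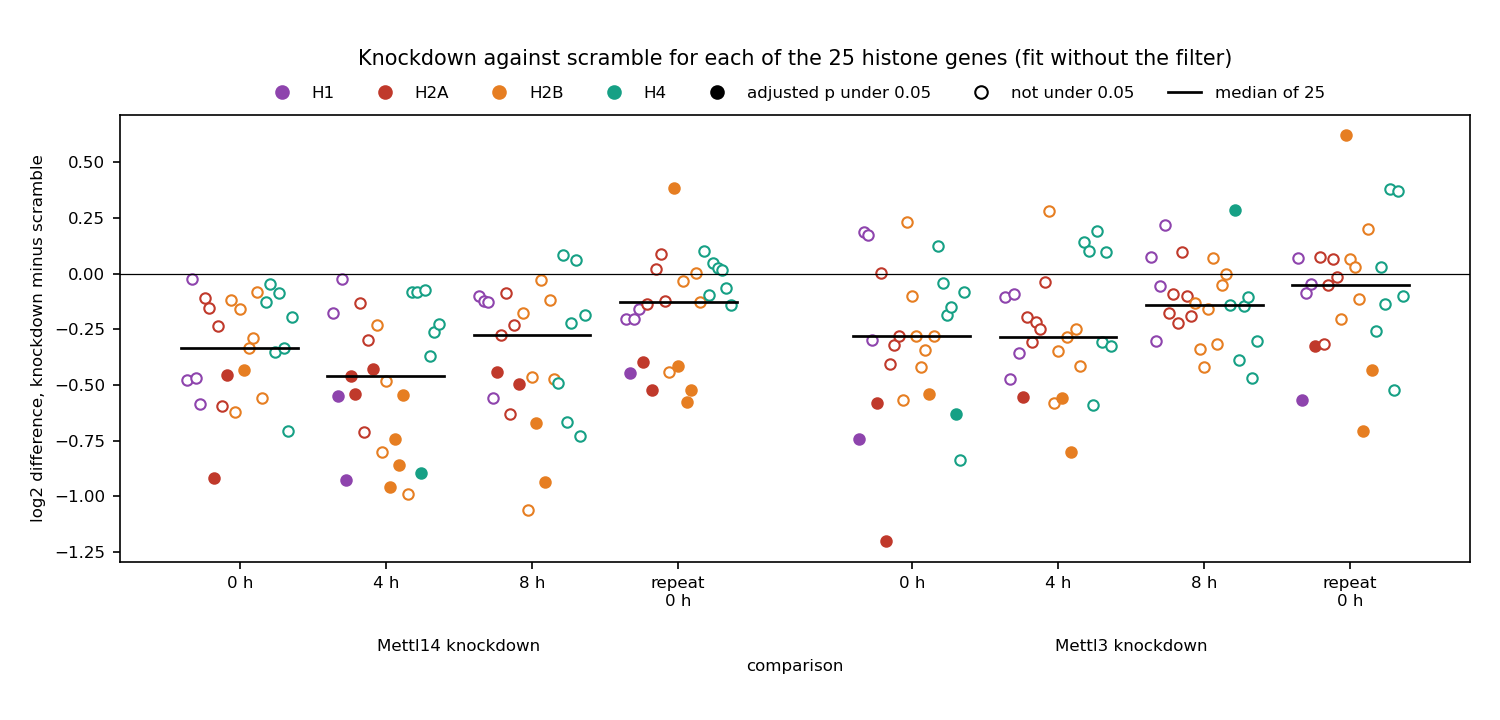
Log2 difference of each of the 25 members between knockdown and scramble cells (circles coloured by class, filled where the adjusted p from limma was under 0.05, with a black bar at the median of the 25), at 0, 4 and 8 h of the time course and at 0 h of the repeat set, for Mettl14 and Mettl3. Most circles lie between 0 and -1, and the lowest median, -0.46, is that of Mettl14 knockdown at 4 h.

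The repeat set gave calls in both directions. In Mettl14 knockdown cells 6 of the 25 members were lower than in their scramble control and 1 higher, against 8.48% and 10.5% of all genes, and in Mettl3 knockdown cells 4 were lower and 1 higher, against 8.74% and 9.09%. The medians of the 25 were -0.13 and -0.05, beside -0.01 and 0.01 for all genes. Among the 17 above the filter 6 were lower and 1 higher in Mettl14 knockdown cells, against 16.9% and 19.4% of the genes tested, and 4 were lower and 2 higher in Mettl3 knockdown cells, against 17.4% and 17.9%. H2bc12 was higher in both, and H2bc3 passed as higher with the filter in Mettl3 knockdown cells, at 0.20 ± 0.05 (adjusted p = 0.023, limma). H2bc12 had 10.94 and 10.95 in Mettl14 knockdown arrays, against 10.54 and 10.59 in their control, and 11.27 and 11.25 in Mettl3 knockdown arrays, against 10.69 and 10.59 in theirs. The knockdown arrays lay above the control arrays in both, as they did for 5165 and 5088 of the 14787 genes tested. H2bc12 changed by 0.38 ± 0.05 (adjusted p = 0.0011, limma) and 0.62 ± 0.05 (0.00019). In the time course at 0 h its arrays had 10.55 and 10.13 in Mettl14 knockdown, 10.77 and 11.63 in Mettl3 knockdown and 11.10 and 10.83 in scramble cells, and no comparison passed.

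H1f2, H2ac1 and H2bc22 were lower in both knockdowns of the repeat set. H1f2 had 10.53 and 10.49 in Mettl14 knockdown arrays, against 10.98 and 10.93 in their control, and 10.40 and 10.18 in Mettl3 knockdown arrays, against 10.86 and 10.85. It changed by -0.45 ± 0.07 (adjusted p = 0.0039, limma) and -0.57 ± 0.07 (0.0015), and the arrays did not overlap. Of the genes tested, 34.4% and 34.1% also lay wholly below their control arrays in these comparisons. H2ac1 changed by -0.40 ± 0.05 and -0.33 ± 0.05, and H2bc22 by -0.52 ± 0.12 and -0.71 ± 0.12. H2ac1 was thus lower in Mettl3 knockdown cells at 0 h in both sets, while in Mettl14 knockdown cells it passed at 0 h in the repeat set and not in the time course, and the difference between the sets did not pass. Without replicate 2 of the Mettl14 scramble control, one of the arrays described as 4 h, 5 of the 17 members above the filter passed in place of 7, and H1f5 and H2bc22 were among those that no longer passed. The count was 4 without replicate 1 of that control or replicate 1 of the knockdown. Without replicate 2 of the Mettl3 scramble control the count was 6, as it was with it.

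The shared probe set of H2bc4, H2bc6 and H2bc8 that rose with time was also the one with the largest fall in the knockdowns of the repeat set among the 21 tested. It had 9.53 and 9.88 in Mettl14 knockdown arrays, against 10.84 and 11.04 in their control, and 9.40 and 9.87 in Mettl3 knockdown arrays, against 10.97 and 10.91. The changes were -1.24 ± 0.17 (adjusted p = 0.0019, limma) and -1.30 ± 0.17 (0.0017), larger than those of any of the 25 members. In the time course at 0 h they were -0.18 and -0.44 (adjusted p = 0.044 and 0.00014). Of the 21 shared probe sets tested, 5 were lower in Mettl14 knockdown cells of the repeat set and 1 in Mettl3 knockdown cells, against 16.2% and 16.5% of the probe sets tested.

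The knockdown effect at 0 h was set against itself between the sets in a fit over all 26 arrays. No member differed for Mettl14, against 7.86% of the genes tested lower and 8.64% higher, while for Mettl3 H1f2 had the lower effect and H2bc3 the higher effect in the repeat set, against 6.15% and 3.66% of the genes tested. Either call was lost, leaving 1, without any of 5 arrays: replicate 1 of scramble or replicate 2 of Mettl3 knockdown in the time course, either scramble array of the repeat set's Mettl3 pair, and replicate 2 of its knockdown. H1f2 had 9.50 and 9.82 in Mettl3 knockdown arrays of the time course, against 9.38 and 9.57 in scramble arrays, and so was not lower there. Levels at 0 h also differed between the sets within a treatment: H1f3 had 8.01 and 8.01 in Mettl14 knockdown arrays of the repeat set and 6.12 and 5.91 in those of the time course. Whether the sets were normalised together is not given in the sources used here, so the levels are only set side by side.

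Other histones and histone-related genes were counted from lists drawn up for this report. A list of replication-independent histones held other histone genes, of which many, but not all, give polyadenylated mRNA throughout the cell cycle. Of these 9 were tested. At 4 h 5 rose and 2 fell in Mettl14 knockdown cells, 3 rose and 2 fell in Mettl3 knockdown cells, and 4 rose and 1 fell in scramble cells. Of all genes tested, 33%, 31.5% and 32.7% rose and 13.1%, 13.1% and 13.5% fell in these treatments. In scramble cells H2az2, a variant found at promoters, and Macroh2a2, a variant of silent chromatin, rose by 0.45 ± 0.06 and 0.51 ± 0.10, and H2ax, which marks DNA breaks when phosphorylated, fell by 0.33 ± 0.07 (adjusted p = 0.0022, limma). The median of the 9 was 0.23, 0.18 and 0.19 in the 3 treatments, beside -2.39, -2.20 and -2.005 for the 17 replication-dependent members above the filter. In Mettl14 knockdown cells at 0 h 5 of the 9 were lower, against 20.1% of the genes tested, and Macroh2a2 and the linker variant H1f10 fell by 0.60 and 0.59.

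Genes that act on histone transcription and on the processing of histone mRNA changed in both directions. Of 36 tested, 10 rose and 11 fell at 4 h in scramble cells, and 11 rose and 16 fell at 8 h. The shares over all genes tested were 32.7% higher and 13.5% lower at 4 h, and 39.2% higher and 21.6% lower at 8 h. Npat, the coactivator of these promoters, fell by 1.15 ± 0.09 at 4 h (adjusted p = 2.8e-06, limma) and fell by 2.15 at 8 h. Casp8ap2, needed for cleavage of histone pre-mRNA, fell by 1.22 ± 0.06 at 4 h and fell by 2.03 at 8 h. Slbp, which binds the stem-loop, fell by 0.20 at 4 h (adjusted p = 0.019) and fell by 0.79 ± 0.06 at 8 h (4.6e-07). In Mettl14 knockdown relative to scramble cells Slbp changed by -0.22 at 0 h (adjusted p = 0.013), by -0.41 at 4 h and by -0.52 at 8 h, and in the repeat set by 0.10 (0.15), where it did not pass.

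Of 45 genes of DNA replication and S phase, 19 rose and 9 fell at 4 h in Mettl14 knockdown cells, 13 rose and 10 fell in Mettl3 knockdown cells, and 19 rose and 7 fell in scramble cells, with medians of 0.08, 0.07 and 0.10. Among all genes tested 33%, 31.5% and 32.7% rose and 13.1%, 13.1% and 13.5% fell. In scramble cells Cdt1 and Cdc6, which load the replicative helicase, changed by -0.97 ± 0.08 and -0.75 at 4 h, and Prim1, a primase subunit, rose by 0.36. In Mettl14 knockdown cells 21 of the 45 were lower than in scramble cells at 0 h and 24 at 4 h, against 20.1% and 19.5% of the genes tested, including Pola1, a subunit of DNA polymerase alpha, at -0.42 ± 0.05 at 0 h. Of 24 histone chaperones, 8 rose and 5 fell at 4 h in scramble cells, against 32.7% and 13.5% of the genes tested, and Chaf1a, a subunit of the chromatin assembly factor, fell by 0.61.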

How the data were processed

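The deposited values are log2 intensities per probe set, which the authors made by RMA with oligo, per the submitters' processing notes. The package version, and whether all 26 arrays were normalised together, are not given in the sources used here. The table held 41345 probe sets. A probe table paired 23521 with 1 gene symbol and 1814 with several, and did not list 16010. For the 1082 genes with several probe sets, that with the highest mean stood for the gene. The dimmest genes by mean signal over all 26 arrays, a fraction of 0.333, were left out of the tests with a filter.

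Tests used limma 3.58.1 under R 4.3.3, with two-sided moderated statistics, with Benjamini-Hochberg adjustment over all genes tested and a threshold of 0.05. The time course had 9 residual degrees of freedom, the repeat set 4 and all arrays together 13. The fit was tested on simulated data. ± gives limma's standard error for groups of 2 arrays. Changes of members below the filter come from a fit without it. The precision is limited by the number of arrays. Probes of near-identical histone genes can bind RNA of more than 1 gene.

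The members and lists were chosen with earlier results of these data known. Named genes were, per comparison, the members with the smallest adjusted p, the member of each class with the highest mean signal, every member called, and up to 3 genes of each other list by adjusted p. The targeted genes, Slbp, Npat and H2ax were always allowed, and some exceptions were named after their values were seen. Alternatives covered the filter, the probe set of a gene, eBayes with trend, a replicate block, 2 scalings and leaving out each array. Another 7 probe sets that list a member together with symbols outside the family were left out.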

Additional observations from a re-analysis of the deposited data

Results flagged for a closer look

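Among the members, 2 results differed between the sets under the same contrast, Mettl3 knockdown against scramble at 0 h, by a test of the difference itself in limma. The knockdown effect on H1f2 was lower in the repeat set than in the time course by a difference of -0.75 ± 0.20 (adjusted p = 0.025). Its effect was -0.57 in the repeat set and 0.18 in the time course. The effect on H2bc3 was higher in the repeat set, with a difference of 0.74 ± 0.12 (adjusted p = 0.00063), from an effect of 0.20 in the repeat set and -0.54 in the time course. Without replicate 2 of the repeat set's Mettl3 scramble control, the array described as 4 h, the H1f2 difference no longer passed.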

How the results depend on the processing

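No call among the 136 called values of single members reversed under any alternative. The calls kept were 136 with a trend in eBayes, 132 with equal housekeeping medians, 134 with probe sets averaged per gene, 128 without the filter, 133 with quantile normalisation and 482 of 552 when 1 array was left out. The replicate numbers showed no steady pairing of the samples. Same-numbered arrays of the time course deviated together with correlations of -0.436 to 0.335 over 36 pairs of groups. The median there was 0.0309, and 12 pairs were over 0.1. In the repeat set the correlations were -0.0475 to 0.0425 over 6 pairs. With the replicate block, 133 of the 136 calls were kept. The block gave 1 call for the Mettl3 knockdown effect on the 8 h change, 4 for 8 h against 4 h in scramble cells, 1 in Mettl3 knockdown cells and 1 for the difference between sets for Mettl14.

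Counts of members called that moved by over 1.5 times were as follows. Equal housekeeping medians gave 5 for Mettl14 and 4 for Mettl3 knockdown at 0 h, 8 for Mettl3 knockdown at 4 h, 11 for Mettl14 and 8 for Mettl3 knockdown at 8 h, 14 for Mettl14 knockdown in the repeat set, and 4, 1 and 1 for 8 h against 4 h in scramble, Mettl14 and Mettl3 knockdown cells, with 1 for the difference between sets for Mettl14. That scaling also called more of the 14787 genes tested lower than the deposited values did. For Mettl14 knockdown 3984, 5701 and 6827 were lower at 0 h, 8 h and in the repeat set, against 2978, 2926 and 2494. For Mettl3 knockdown 4543, 5607 and 6471 were lower at 0 h, 4 h and 8 h, against 2744, 2727 and 2815. The members' counts at 0 h were near or below these shares of all genes. Those of Mettl14 knockdown at 8 h and in the repeat set were above. A further quantile normalisation gave 2 members for Mettl3 knockdown at 8 h. The fit without the filter gave 5 for Mettl3 knockdown at 0 h and 1 for the difference between sets for Mettl3. A trend in eBayes gave 1 for the Mettl3 knockdown effect on the 8 h change, 5, 2 and 2 for 8 h against 4 h in scramble, Mettl14 and Mettl3 knockdown cells, and 2 for the difference between sets for Mettl14. The cause was not tested.

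Leaving out 1 array, the counts for 4 h against 0 h were 15 in Mettl14 knockdown, 14 to 16 in Mettl3 knockdown and 14 to 16 in scramble cells, and for 8 h against 0 h they were 14 to 15, 14 to 16 and 15. For Mettl14 knockdown they ran from 0 to 3 at 0 h, 6 to 8 at 4 h, 4 to 9 at 8 h and 4 to 5 in the repeat set. For Mettl3 knockdown they were 2 at 0 h, 3 to 4 at 4 h, 0 to 1 at 8 h and 5 to 6 in the repeat set. They were 1 to 3, 0 to 2 and 0 to 1 for 8 h against 4 h in scramble, Mettl14 and Mettl3 knockdown cells, 0 to 1 for each knockdown effect on the 8 h change, 0 for those on the 4 h change, and 0 to 1 and 1 to 2 for the difference between sets for Mettl14 and Mettl3. The comparisons of 8 h with 4 h and the effects on the 4 h change, with their alternatives, were added after seeing the data. The 8 members below the filter lie at the low end of the signal range, and their changes rest on the fit without it.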
